A study of Mus musculus with 4 samples.

Results

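Retained intron events were examined in splenic follicular B (FOB) cells of mice lacking the RNA-binding protein hnRNP F. Members were all entries of type retained intron in the deposited table of differential splicing, with exact repeats dropped. There were 227 such events among 1555 events of all types, which is 14.6%, and they lay in 213 of the 1173 genes with any event. The samples were 2 libraries labelled WT and 2 labelled Hnrnpf KO, all from C57BL/6 mice with a labelled age of 7 weeks, sorted as B220+CD93-CD23highCD21low cells. By the study's methods, the knockout mice carried loxP-flanked *Hnrnpf* alleles and a Cre recombinase that is active in B cells, and the WT mice carried the same floxed alleles without Cre. The presence of Cre and the loss of hnRNP F therefore cannot be told apart. Whether a library came from 1 mouse or from pooled mice was not given in the sources used here, so p-values measure only the spread between these libraries.

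An intron is retained when a spliced, polyadenylated mRNA still holds it. Such transcripts can be kept in the nucleus or, where the intron brings a stop codon into the reading frame, be removed by nonsense-mediated decay. hnRNP F, like its relative hnRNP H1, binds runs of G in pre-mRNA and influences the use of nearby splice sites. CD40, the receptor through which T cells help B cells, is encoded by 1 of the genes described here.

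The presence of an event in the table was the study's own call on these same 4 libraries, so the events are described here and not tested again. The table gave each event by its gene, without the position of the intron. Introns were therefore taken from the GRCm38 gene annotation. A candidate intron is one that 1 transcript of a gene splices out and that lies inside an exon of another transcript of that gene. The program that made the table, rMATS, takes retained introns from such transcript models, so every gene with an event had to have a candidate, and all 213 did. Of the 213 genes, 20 had exactly 1 candidate intron, so by this definition the gene name points to 1 intron only for these. In 211 of the 213 genes, at least 1 candidate had ends that match the flanking exons exactly. There were 74 genes with 1 such candidate and 1 event. The first 7 introns below are from the 20 genes with 1 candidate and are among the shorter ones. The last 3 belong to genes whose mRNA abundance changed and which had 1 candidate whose ends match the flanking exons exactly, although they had from 3 to 5 candidates in all. Capitals mark each run of at least 3 G. All of these introns interrupt the coding sequence, and each is written 5′ to 3′ on its gene's strand in GRCm38 coordinates. *Irf3*, *Tmem120a*, *Dennd4b*, *Capn7* and the last 3 were chosen for display after their values were seen.
Cd40 intron 7 of 8, chr2:165069716-165069816 (+ strand): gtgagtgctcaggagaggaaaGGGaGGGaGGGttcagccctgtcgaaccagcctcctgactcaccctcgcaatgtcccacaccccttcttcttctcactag
Cenpx intron 3 of 5, chr11:120711757-120711843 (- strand): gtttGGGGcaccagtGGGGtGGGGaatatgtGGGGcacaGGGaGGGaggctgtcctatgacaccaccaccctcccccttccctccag
Irf3 intron 5 of 7, chr7:45000547-45000644 (+ strand): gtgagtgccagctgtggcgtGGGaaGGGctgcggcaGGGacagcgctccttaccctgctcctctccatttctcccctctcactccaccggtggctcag
Tmem120a intron 6 of 11, chr5:135736663-135736745 (- strand): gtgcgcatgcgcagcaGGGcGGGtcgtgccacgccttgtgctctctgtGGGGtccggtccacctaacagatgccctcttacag
Dennd4b intron 22 of 27, chr3:90277905-90277987 (+ strand): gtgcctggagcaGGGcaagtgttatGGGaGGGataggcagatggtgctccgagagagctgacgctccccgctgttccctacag
Capn7 intron 20 of 20, chr14:31370795-31370877 (+ strand): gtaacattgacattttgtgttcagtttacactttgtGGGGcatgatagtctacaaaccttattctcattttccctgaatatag
Spice1 intron 8 of 17, chr16:44370020-44370237 (+ strand): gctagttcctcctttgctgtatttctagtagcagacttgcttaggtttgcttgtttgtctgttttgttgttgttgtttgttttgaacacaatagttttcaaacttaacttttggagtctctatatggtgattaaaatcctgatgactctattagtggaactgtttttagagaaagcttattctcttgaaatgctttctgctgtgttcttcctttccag
Csf2ra intron 5 of 10, chr19:61226056-61226214 (- strand): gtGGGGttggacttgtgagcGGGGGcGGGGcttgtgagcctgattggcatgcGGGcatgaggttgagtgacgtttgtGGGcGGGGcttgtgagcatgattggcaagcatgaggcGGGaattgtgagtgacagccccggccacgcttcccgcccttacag
Pltp intron 5 of 14, chr2:164852537-164852616 (- strand): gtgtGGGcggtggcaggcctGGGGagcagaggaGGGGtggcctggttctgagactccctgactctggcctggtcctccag
Arrdc1 intron 6 of 7, chr2:24926195-24926271 (- strand): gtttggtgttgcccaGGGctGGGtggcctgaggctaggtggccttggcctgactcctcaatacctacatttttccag

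The *Cd40* intron has 101 bases, with 3 runs of G that start at bases 22, 26 and 30, and it brings an in-frame stop codon when retained. Among the annotated transcripts, it is held by one of the nonsense-mediated decay class. The intron of *Cenpx*, which encodes a centromere protein, has 87 bases and 6 runs of G, all in its first 60 bases. Its length is a multiple of 3 and it has no in-frame stop. *Irf3*, a transcription factor of the interferon response, has 3 runs in 98 bases. *Tmem120a* and *Dennd4b* each have 3 runs in introns of 83 bases. The *Capn7* intron is as short, with 1 run and a GC content of 34.9%, against 58.4% in *Cd40*. The intron of *Spice1*, a gene for a centriole protein, has 218 bases without any such run and begins with GC in place of GT. Among the last 3, *Csf2ra* has 7 runs in 159 bases, *Pltp* 3 runs in 80 bases and *Arrdc1* 2 runs in 77 bases.

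**Figure D1:**
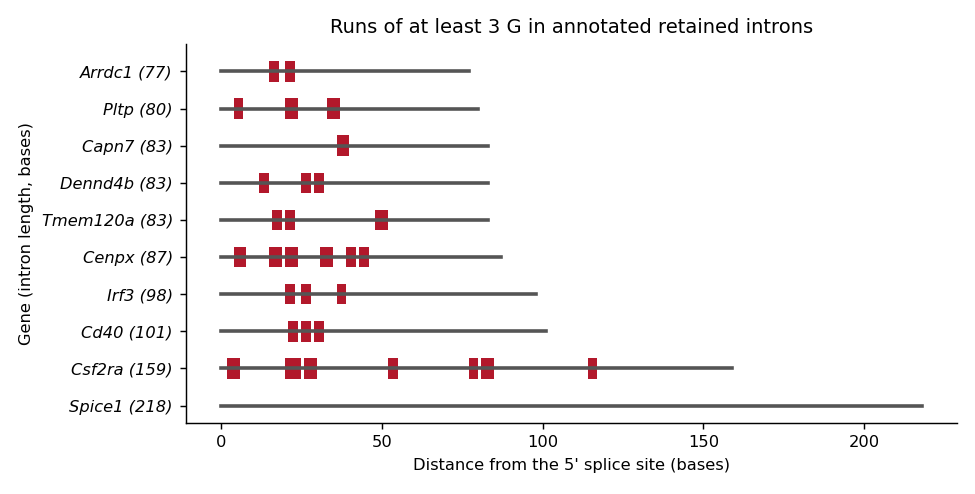
Position of each run of at least 3 G (red boxes) along the 10 introns shown, in bases from the 5′ splice site, with the intron length in parentheses. In 9 of the 10 introns the first run starts within the first 60 bases, and Spice1 has no run.

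Over the 20 genes with a single candidate, the introns had between 83 and 2691 bases. At least 1 run of 3 G was present in 19 of them, against 90.7% of the introns in 2234 other tested genes with 1 candidate. A run lay within the first 60 bases in 15, against 58.5% in the other genes. Among the 20 introns, 9 were shorter than 150 bases, against 26.9%. A reading frame could be followed through 15 of the 20 introns, and 12 of these met a stop codon. In the other genes 89.0% of 1372 such introns met one, so a stop was not more frequent in the 15. No test was made between these shares. The longest of the 20 introns was the only candidate of *Adpgk*, the gene of an ADP-dependent glucokinase.

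All 213 genes together had 1002 candidate introns, with a median of 4 per gene and at most 15. There were 227 events, so most of these candidates are not the intron of an event. The 4718 other tested genes with candidates had 10919, with a median of 2 per gene, so a gene with an event also had more introns in which one could be called. The candidate introns of genes with an event were shorter, with a median of 221 bases against 298. Their GC content was 54.0% against 50.6%, and their density of G runs was 1.91 per 100 bases against 1.44. Runs of at least 3 C moved in the same direction, at 1.64 against 1.32 per 100 bases, so the difference in G runs went with a difference in base composition, whose part in it was not tested. A run of G was present in the first 60 bases of 73.8% of the introns against 64.7%, and in the last 60 bases of 56.1% against 46.3%. In the shortest introns these windows overlap, so the ends are not fully separated. The lower quartile of length was 105 bases against 131. Over the candidate introns of genes with at least 100 mean counts alone, the densities were 1.88 and 1.44. These values are descriptions without a test, since introns of 1 gene share their source.

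For length, G content and G runs, the same directions were seen where the link from event to intron is tighter. There were 74 genes with 1 event and 1 candidate of exactly matching ends. Their introns had a median of 2.49 G runs per 100 bases, against 1.35 in 1220 other tested genes with 1 such intron. Median lengths were 212 and 314 bases, and the median share of G among the bases was 29.7% and 24.6%. Both this set of exactly matching introns and the set with 1 candidate were defined after the data were seen.

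Differences in position were smaller or changed sign where the link was tighter. Those in in-frame stops and in the nonsense-mediated decay class were smaller with exactly matching ends but not in genes with 1 such intron. Among all candidate introns that a coding transcript splices out, 92.4% lay in the coding sequence against 83.7% in other genes, but with exactly matching ends the shares were 94.9% and 94.0%, and in genes with 1 such intron 90.1% and 92.9%. First introns made up 8.55% of all candidates that a coding transcript splices out, against 18.6% in other genes. Among those, the shares were 2.09% and 3.43% with exactly matching ends, and 4.23% and 3.85% in genes with 1 such intron. When read through, 616 of 727 coding introns, or 84.7%, met an in-frame stop against 87.9% in other genes. With exactly matching ends the shares were 85.4% and 85.1%, and in genes with 1 such intron 82.3% and 86.1%. Annotated transcripts of the nonsense-mediated decay class held 9.98% of the candidate introns against 4.28%, and 11.9% against 9.21% of those with exactly matching ends. In genes with 1 such intron the shares were 14.9% and 8.69%.

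**Figure D2:**
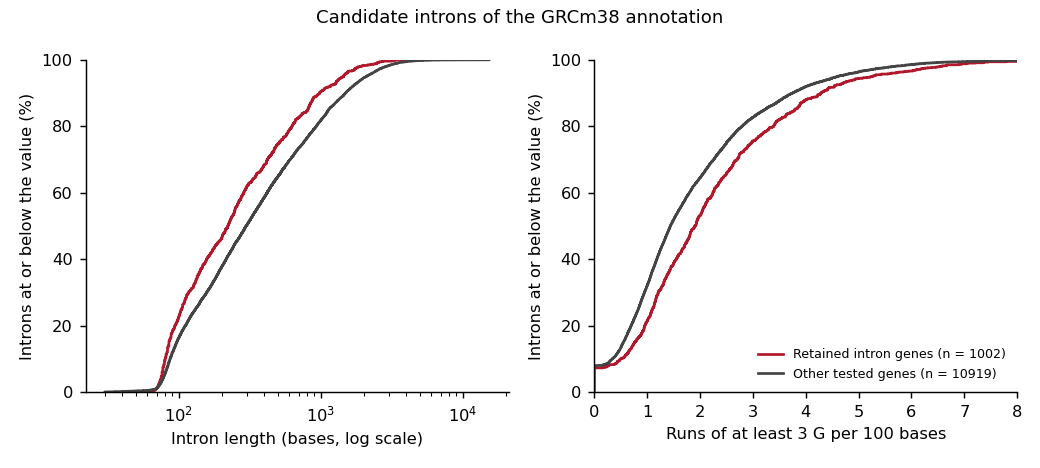
Cumulative share of candidate introns (%) by length in bases on a log scale (left) and by runs of at least 3 G per 100 bases (right), for 1002 introns of genes with a retained intron event (red) and 10919 introns of other tested genes (grey). The red curve lies to the left for length and to the right for G runs.

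Retained intron events were spread thinly over genes. There was 1 event in each of 200 genes, 12 genes had 2, and *Tbl3*, which encodes a protein of ribosomal RNA processing, had 3. In 154 genes (72.3%) no other type of event was listed. Exon skipping was also listed in 42 of the genes, which is 19.7% of the genes with a retained intron and 5.15% of those with exon skipping. An alternative 3′ splice site was shared by 14 genes (6.57% of the retained intron genes and 12.3% of the others' list), an alternative 5′ splice site by 13 (6.10% and 9.56%) and mutually exclusive exons by 5 (2.35% and 11.6%). Events of at least 3 types were listed in 14 genes, among them *Cd40* with 1 retained intron, 3 skipped exon events and 1 event of mutually exclusive exons. The genes lay on 20 chromosomes, with at most 21 on any one.

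The 4 libraries held between 15698567 and 18908963 counts. *Hnrnpf* itself gave 5780 and 6634 counts for WT, against 1167 and 1194 for the knockout, a log2 fold change of -2.32 ± 0.06 (SE), and it had no retained intron event. Markers of follicular B cells were high in every library, with a summed level from 2390 to 2830 FPKM over 6 genes. FPKM is the read count per kilobase of exon, scaled to the total of the library. The summed level of 6 myeloid markers was 12.7 and 19.3 FPKM in WT and 27.2 and 42.3 in the knockout. Of the 6, *S100a8* and *S100a9* rose, *Csf1r* and *Itgam* were under 1 FPKM throughout, and *Adgre1* was at 0.74 and 1.01 FPKM in WT and at 0.55 and 0.41 in the knockout. The log2 fold changes of *Lyz2* (0.56), *Itgam* (0.71), *Csf1r* (-0.21) and *Adgre1* (-0.86), which did not pass the test, had both signs. The summed level of 6 T cell markers lay between 10.9 and 16.0 FPKM in all libraries.

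Genes with a retained intron event were mostly well expressed. Their mean count over the 4 libraries had a median of 1111, with quartiles at 428.8 and 2322. The median level of the tested ones was 12.6 FPKM against 6.03 for all tested genes. Of tested genes under 100 mean counts 0.471% had an event, against 4.9% of those at 10000 or more. Reads are needed for an event to be called, so a higher level is in part built into the listing. How large that part is was not tested. The highest levels were those of *Ddx5*, an RNA helicase, with a mean of 604 FPKM, and *Arhgap45*, a GTPase activating protein, with 513. *Rsrp1* followed at 307, *Siglecg* at 204, *Vars* at 185, *Srsf5* at 159, *Map4k2* at 148 and *Hnrnph1* at 133 FPKM. At the other end, *Ltc4s* had between 2 and 10 counts per library and *Dmxl2* between 5 and 11, and these were the 2 genes not tested. *Cox6b2* had between 6 and 21 counts.

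Whether the mRNA of these genes also differed in abundance was tested with edgeR's quasi-likelihood test over 14123 genes, with adjusted p of at most 0.05 as the call. Gene counts are not independent of retention. Candidate introns lie inside annotated exons and made up a median of 21.8% of the exonic bases of these genes, against 13.9% in other genes with candidates, so reads from a retained intron can add to the gene's count. The part of such reads in the results that follow was not tested. The share was 25.9% in genes called higher, 24.2% in those called lower and 21.2% in those not called.

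Of the 211 tested genes, 37 (17.5%) were higher in the knockout libraries, while 4.15% of all tested genes were called in that direction. A further 14 (6.64%) were lower, against 2.83% of all. Without WT replicate 2, or without either knockout library, 9 were lower. Differences were small, since 44 of these 51 genes changed by less than 1.5-fold. Only *Tyw5* and *Tgfb1i1* reached 2-fold with the same test, while 0.899% of all tested genes did. The median log2 fold change over the 211 genes was 0.019, with quartiles at -0.10 and 0.22, and over all tested genes it was -0.002. In 137 genes (64.9%) the libraries of both groups did not overlap, against 50.1% of all tested genes. All 37 higher and all 14 lower genes were among them, which goes with the call itself and is not a further result. The calls rest on the counts: limma on log2(FPKM + 0.1) called 2 of the genes higher and 0 lower, with 46 and 28 at an unadjusted p under 0.05. DESeq2, which the study's methods name, called 31 of the 37 higher and 10 of the 14 lower genes. Among genes described below, it did not call *H2-Ke6*, *Rasa4*, *Snx32*, *Mppe1*, *Brd8* or *Primpol* (DESeq2 adjusted p from 0.0588 to 0.227).

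**Figure D3:**
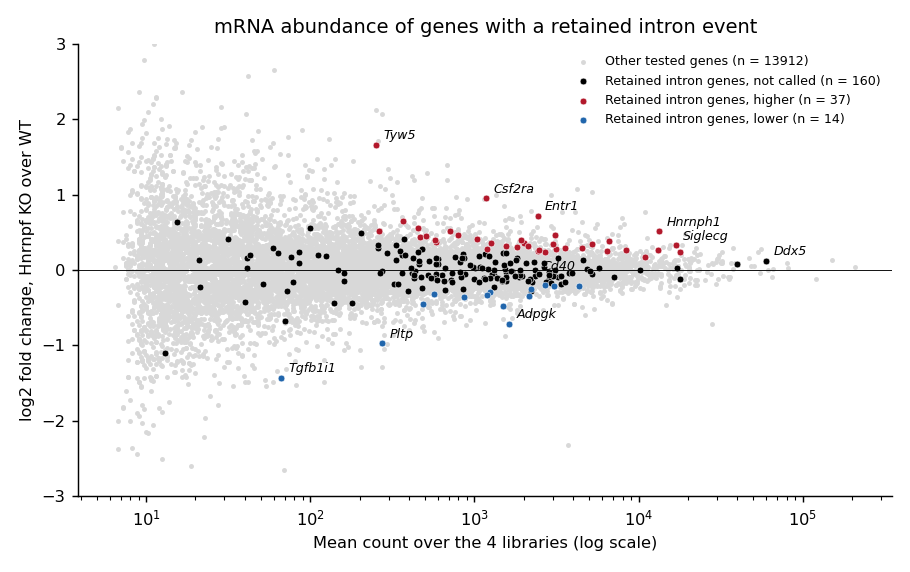
Log2 fold change of Hnrnpf KO over WT against the mean count over the 4 libraries (log scale) for every tested gene. The 37 higher (red) and 14 lower (blue) retained intron genes lie mostly close to 0, apart from Tyw5, Csf2ra, Pltp and Tgfb1i1, and 8 other genes lie beyond the plotted limit of 3.

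A higher count gives a smaller error, so the shares were also set beside those of genes of like abundance, a division added after the data were seen. Under 100 mean counts, 0 of 20 retained intron genes were higher by edgeR (0 at an unadjusted p under 0.05 and 0 by DESeq2) against 1.66% of the others, and 1 of 20 was lower against 0.733%. Between 100 and 1000, 12.7% of 79 retained intron genes were higher against 3.69% of the others. Between 1000 and 10000, the shares were 21.6% of 102 genes and 6.5%. At 10000 or more, 5 of 10 genes were higher against 13.4% of the others. For lower calls, the shares were 5.06% against 2.42% between 100 and 1000, 8.82% against 5.43% between 1000 and 10000, and 0 of 10 against 7.22% at 10000 or more, where 1 was lower at an unadjusted p under 0.05 and 0 by DESeq2. The last range thus went the other way. Among genes whose events were all retained introns, 23 of 152 (15.1%) were higher and 11 (7.24%) lower. Where another type of event was listed too, 14 of 59 (23.7%) were higher and 3 (5.08%) lower. Genes with exon skipping and no retained intron had 6.67% higher and 5.23% lower calls, and genes with an alternative 5′ or 3′ splice site and no retained intron had 22 higher and 9 lower (4.11%) among 219. Genes with a candidate intron and no event of any type had 4.67% and 3.62%. No test was made between these shares.

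**Figure D4:**
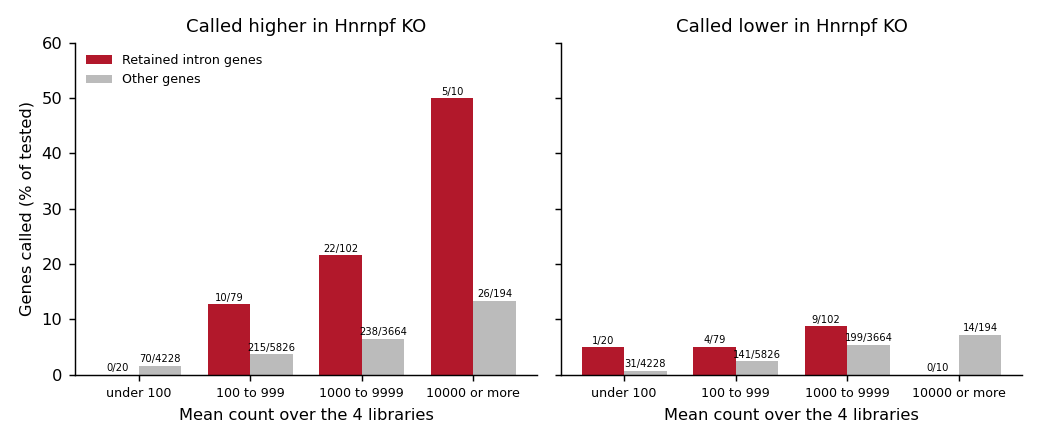
Share of tested genes (%) called higher (left) or lower (right) in Hnrnpf KO by mean count, for retained intron genes (red) and other genes (grey), with the number called over the number tested above each bar. From 100 mean counts upward the red bars are above the grey ones for higher calls, with 5 of 10 against 13.4% in the last range.

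*Tyw5*, which encodes a hydroxylase that modifies phenylalanine tRNA, rose most. It gave 114 and 137 counts for WT, against 344 and 411 for the knockout, so the groups were far apart. Its log2 fold change was 1.66 ± 0.13 (SE, n = 2 per group, edgeR adjusted p = 9.7e-06), and 11 of 12 alternative fits made the same call. *Csf2ra*, the alpha chain of the receptor for the cytokine GM-CSF, gave 660 and 1014 counts for WT, against 1426 and 1625 for the knockout, a change of 0.95 ± 0.10 (SE, edgeR adjusted p = 0.000128). The WT libraries differed from each other here, at 14.1 and 18.7 FPKM, and the knockout libraries were close, at 31.6 and 31.3. The rise went with the higher sum of myeloid markers given above, in which *S100a8* and *S100a9* rose, and whose part in it was not tested. *Entr1*, a gene for a regulator of endosomal trafficking, gave 1730 and 2066 counts for WT, against 2696 and 3248 for the knockout, a change of 0.72 ± 0.06 (SE, edgeR adjusted p = 9.7e-06). It had 1 retained intron, 2 skipped exon events and 1 event of mutually exclusive exons.

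*Hnrnph1*, the closest relative of *Hnrnpf* among the members, gave 9916 and 12791 counts for WT, against 13922 and 16845 for the knockout. The lowest knockout library stood above the highest WT library, and the change was 0.52 ± 0.06 (SE, edgeR adjusted p = 0.000162). Its candidate introns make up 50.7% of its exonic bases. *Tmem191c* rose by 0.65 ± 0.10, *Gpr137* by 0.55 ± 0.10 and *Galt*, the gene of an enzyme of galactose metabolism, by 0.52 ± 0.08 (log2, SE). *H2-Ke6*, which encodes a short-chain dehydrogenase in the MHC region and had 2 events, gave 223 and 221 counts for WT, against 256 and 352 for the knockout (0.52 ± 0.14, edgeR adjusted p = 0.0403). Leaving out WT replicate 2 or knockout replicate 2 removed that call, and adjusted p ranged from 0.0198 to 0.241 over the libraries left out.

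*Tgfb1i1*, a gene for a focal adhesion protein, fell most. It gave 82 and 116 counts for WT, against 37 and 32 for the knockout, with a log2 fold change of -1.43 ± 0.27 (SE, edgeR adjusted p = 0.00681). *Pltp*, which encodes phospholipid transfer protein, gave 334 and 405 counts for WT, against 178 and 179 for the knockout, a change of -0.97 ± 0.12 (SE, edgeR adjusted p = 0.000512). In CPM (counts scaled to the total of the library) the levels were 20.9 ± 0.613 (SD, n = 2) and 10.7 ± 0.964. *Adpgk* gave 1909 and 2218 counts for WT, against 1171 and 1213 for the knockout, a change of -0.71 ± 0.07 (SE, edgeR adjusted p = 4.6e-05), and its only candidate intron makes up 28.0% of its exonic bases. In all 3 genes every knockout library was below every WT library.

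*Cers4*, a ceramide synthase gene, changed by -0.48 ± 0.07 and *Spice1* by -0.46 ± 0.09 (log2, SE). *Hes6*, a transcriptional regulator, changed by -0.35 ± 0.08, *Arrdc1*, an arrestin-related adaptor, by -0.34 ± 0.06 and *Mppe1* by -0.33 ± 0.08. *Primpol*, which encodes a primase that restarts stalled DNA replication, changed by -0.32 ± 0.09 with an edgeR adjusted p of 0.0489. Its call did not hold when any 1 of the 4 libraries was left out (0.0501 to 0.251). That of *Mppe1* was lost without WT replicate 2 or knockout replicate 2 (0.00203 to 0.197 over the libraries left out), that of *Hes6* without knockout replicate 2 (0.0196 to 0.0676) and that of *Spice1* without WT replicate 1 (0.0154 to 0.0519).

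**Figure D5:**
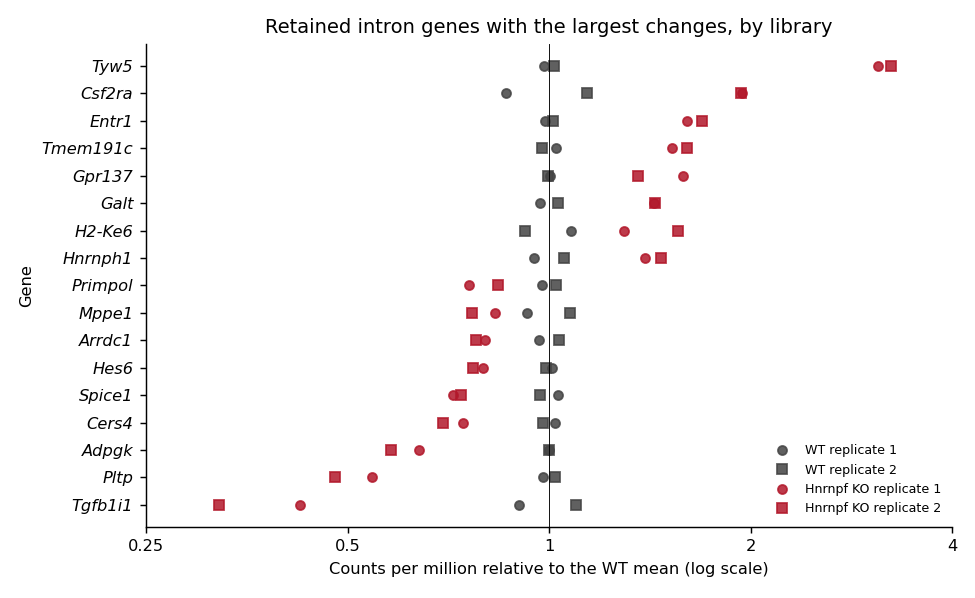
CPM of each library relative to the WT mean (log scale) for the retained intron genes with the largest rises and falls, with WT in grey and Hnrnpf KO in red, circles for replicate 1 and squares for replicate 2. All of these genes were picked from those called, and in each the pair of red points does not overlap the pair of grey ones.

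*Cd40* did not pass the test for a change in abundance. It gave 2352 and 2567 counts for WT, against 2016 and 2427 for the knockout, so the groups overlapped. In CPM this was 139 ± 6.28 (SD, n = 2) in WT and 132 ± 4.86 in the knockout, with a log2 fold change of -0.08 ± 0.06 (SE, edgeR adjusted p = 0.510). The candidate intron of *Cd40* is 2.97% of its exonic bases. Of the other single-candidate genes whose introns are shown, *Irf3* (-0.08 ± 0.05), *Dennd4b* (-0.10 ± 0.05), *Capn7* (-0.09 ± 0.06), *Tmem120a* (-0.02 ± 0.12) and *Cenpx* (0.28 ± 0.09) did not pass either.

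In the genes with more than 1 retained intron event, every change that passed was under 1.5-fold. *Tbl3* gave 887 and 1170 counts for WT, against 1034 and 1188 for the knockout. The raw counts overlapped while counts scaled to depth did not, with a log2 fold change of 0.19 ± 0.08 (SE, edgeR adjusted p = 0.181). Among the 12 genes with 2 events, 6 were higher, beside 17.5% of all tested retained intron genes and 4.15% of all tested genes. *Siglecg*, which encodes an inhibitory partner of the B cell receptor, gave 14170 and 16625 counts for WT, against 16868 and 19908 for the knockout. Per kilobase this was 180.2 and 183 FPKM against 224 and 229, a clear separation (0.33 ± 0.05, edgeR adjusted p = 0.000923). *Trmt2a*, a tRNA methyltransferase gene with events of 4 types, rose by 0.35 ± 0.06, *Arhgap4* by 0.27 ± 0.05 and *Jak3*, the kinase of common gamma chain cytokine receptors, by 0.30 ± 0.06. *Snx32*, a sorting nexin gene, rose by 0.40 ± 0.09, and *H2-Ke6* is given above. The calls on *Jak3* and *Snx32* were lost without WT replicate 1 (edgeR adjusted p from 0.00052 to 0.0544 and from 0.00751 to 0.0958 over the libraries left out). *Dvl1*, of the Wnt pathway, was the lower one (-0.26 ± 0.06), and its call was lost without WT replicate 2 or knockout replicate 1 (0.00876 to 0.103). The heat shock factor gene *Hsf1* (-0.08 ± 0.06), *Gba2* (-0.07 ± 0.06), *Dennd6b* (-0.03 ± 0.06), *Zfp384* (0.00 ± 0.06) and *Arhgef39* (0.42 ± 0.36) did not pass. Of the 14 genes with events of at least 3 types, *Entr1*, *Trmt2a* and *Rasa4*, a Ras GTPase activating protein gene, were higher and the remaining ones were not called, beside the same 17.5% and 4.15%. The call on *Rasa4* was lost without WT replicate 2 or knockout replicate 2 (edgeR adjusted p from 0.00834 to 0.161).

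Genes of RNA processing were searched for events by lists. As a background for the counts below, 1.49% of all tested genes, and 4.28% of those with a candidate intron, had an event, and 4.15% of all tested genes were called higher and 2.83% lower. Of 42 hnRNP and other splicing regulator genes, 3 had a retained intron event, and of these *Hnrnph1* rose while *Celf1* (0.02 ± 0.05) and *Ddx5* (0.13 ± 0.05) did not pass. Of the whole list, 3 genes were higher and 3 lower, *Hnrnpf* included, with a median of 0.01. Of 22 SR protein and CLK kinase genes, which encode splicing factors and their kinases, *Srsf5* had an event. It gave 9666 and 11489 counts for WT, against 10626 and 12015 for the knockout, and 148 and 152 FPKM against 169.7 and 166.7. The change of 0.17 ± 0.05 passed (edgeR adjusted p = 0.0392) but did not when any 1 library was left out (0.0506 to 0.185). Of the 21 tested genes of that list, 4 were higher and 0 lower by edgeR, with 8 at an unadjusted p under 0.05.

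Among 59 spliceosome genes, *Bcas2* had an event and was not called (-0.05 ± 0.08). The list had 3 higher and 1 lower gene. Among 21 genes of mRNA cleavage and polyadenylation, 3 had an event, namely *Cstf2* (-0.10 ± 0.06), *Cpsf1* (0.13 ± 0.05) and *Cpsf4* (-0.25 ± 0.08), and none of these was called. *Cstf2* encodes the subunit that binds RNA downstream of the cleavage site. None of the 22 genes of nonsense-mediated decay and the exon junction complex had an event. By edgeR 0 of these 22 were called, with 2 at an unadjusted p under 0.05, and DESeq2 also called 0.

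The lists of B cell biology and cell regulation held from 0 to 5 genes with an event each, to be read beside the same 1.49% and 4.28% for events and 4.15% and 2.83% for calls. Of 34 CD40 and NF-kB pathway genes, *Cd40* and *Jak3* (5.88%) had one, and 2 of the list were higher and 0 lower by edgeR, with 7 at an unadjusted p under 0.05 and 2 called by DESeq2. Of 42 genes of B cell receptor signaling and its inhibitors, *Siglecg* and *Prkcd* (4.76%) had one, and both rose. *Prkcd*, a protein kinase C gene, had 80.8 and 80.5 FPKM in WT and 93.9 and 97.8 in the knockout (0.26 ± 0.05, edgeR adjusted p = 0.00619). The list as a whole had 5 higher and 7 lower genes. None of the 29 antigen presentation genes had an event. Of 43 genes for small GTPase regulators and cytoskeleton, 5 had one, which is 11.6%. *Arhgap4* rose, whereas *Arhgap45* (0.07 ± 0.05), *Arhgap1* (-0.10 ± 0.08), *Arhgef2* (-0.02 ± 0.05) and *Plekhg2* (-0.15 ± 0.05) did not pass. Of 48 chromatin and transcription regulators, *Brd8*, a bromodomain gene, had an event and fell by 0.20 on the log2 scale, a call that was lost without WT replicate 2 or without either knockout library (edgeR adjusted p from 0.0427 to 0.273).

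Strand was not used in these comparisons. The library kit named in the study's methods does not mark it, and the exons of 116 of the 213 genes overlap those of another gene, so reads there cannot be told apart. Of the 51 called genes, 27 are of this kind, 20 higher and 7 lower, including *Tyw5*, *Entr1*, *Pltp* and *Adpgk*.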

How the data were processed

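RNA-seq libraries of sorted FOB cells were grouped by the genotype on their labels. Per the study's methods, poly(A) mRNA was sequenced in pairs of 150 bases, trimmed with Cutadapt 1.9.1, aligned to GRCm38 with HISAT2 2.0.1 and counted with HTSeq 0.6.1. The authors deposited whole-number read counts per gene, FPKM values made from these counts, and exonic gene sizes in bases. The strand setting and the annotation release were not given in the sources used here. The deposited splicing table, made with rMATS turbo, lists significant events, with the authors' FDR and the difference in inclusion level between the groups. Those columns hold the authors' own comparison and were not used, so no direction of an event is given. Gene and event type alone were taken from it.

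Counts were tested with edgeR 4.0.16 (TMM scaling, low-count filter by group, quasi-likelihood F test, Benjamini-Hochberg adjustment over 14123 genes), which was checked on simulated data. A permutation of 2 libraries against 2 cannot go below p = 0.333. Alternatives used DESeq2 1.42.0, limma 3.58.1 on log2 FPKM, other filters and thresholds, a replicate block and each library left out. Chi-square per degree of freedom between libraries of 1 group was 4.13 in WT and 3.77 in the knockout, above the 1 of counting noise. TMM factors lay between 0.9923 and 1.007.

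Introns of at least 30 bases were taken from the GENCODE M21 annotation of GRCm38, and their sequences from its transcripts. The deposited exonic size equalled the union of these exons in 211 of the 213 genes. Named genes were those with at least 2 retained intron events, those called at 2-fold, the 8 largest rises and falls among called genes with at least 100 mean counts, the 8 of highest FPKM, the 3 of lowest count, members of the gene lists and genes with at least 3 event types. Members, lists and rules were chosen with earlier results of these data known. Some items are not reported here.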

Additional observations from a re-analysis of the deposited data

How the results depend on the processing

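All 51 called retained intron genes kept their direction in all 12 alternative fits, and 25 of them (20 higher, 5 lower) were called in all 9 fits on counts. All of these fits reused the same libraries, whose groups did not overlap in any of the 51 genes, so a kept direction is no separate support. Against 37 higher and 14 lower genes, limma on log2(FPKM + 0.1) called 2 and 0, with a pseudocount of 1 it called 2 and 0, and with no filter 0 and 0, with 46, 46 and 46 higher and 28, 27 and 28 lower at an unadjusted p under 0.05. An adjusted p of at most 0.01 left 24 and 6. Genes with retained introns as their only event type gave 23 higher genes. Leaving out 1 library gave 29 to 34 higher and 9 to 14 lower genes, with 9 lower ones without WT replicate 2 and also without either knockout library. Of the 2 genes at 2-fold, limma called 1, 1 and 0, the genes with only retained introns included 1, and leaving out a library gave 2 to 3. The median log2 fold change of 0.019 was 0.013 with DESeq2, 0.011 with no count filter, 0.007, 0.007 and 0.003 with limma, and 0.007 to 0.041 with a library left out. It reversed to -0.014 in the 152 tested genes with only retained introns, while the 59 with another type of event had a median of 0.113. Over all genes, 985 calls became 617 with DESeq2, 45, 41 and 1 with limma, 392 at the stricter threshold and 679 to 861 with a library left out. The cause of these shifts was not tested. The 1002 candidate introns became 497 with exactly matching ends and 20 in genes with 1 candidate, by construction.

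Deviations from the group means of same-numbered libraries correlated at -0.0706. With 2 libraries per group this is a single contrast, so it cannot decide whether the replicate numbers pair the libraries. A fit with the replicate block called 612 genes in all, with 32 higher and 8 lower retained intron genes. Depth limits the genes of low count most, where 20 of the 211 tested genes had a mean under 100.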
